A study of Mus musculus with 12 samples.

Results

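RNA-seq was used to follow the genes of 5 STAT proteins other than STAT6, namely Stat2, Stat3, Stat4, Stat5a and Stat5b, in mouse macrophages exposed to IL-4, to LPS or to both. The 5 genes were taken by symbol, each symbol had 1 row among the 23847 rows of the expression tables, and 4 of the 5 reached at least 1 FPKM in at least 1 sample. FPKM relates the fragments of a gene to its transcript length and to all fragments mapped in the sample, so levels of different genes can be compared per length. The cells were bone marrow-derived macrophages (BMDMs) of wild-type C57BL/6 mice aged 8 to 12 weeks, grown from marrow for 6 days with L929 supernatant, a source of the growth factor MCSF. They stayed unstimulated (control), received IL-4 for 24 h at a dose of 20 ng/ml (IL-4), received LPS for 3 h at a dose of 100 ng/ml by the sample labels (LPS), or received the LPS after the 24 h of IL-4 (IL-4+LPS). The study's methods give the LPS concentration in nM with the same number, so the unit of that dose is uncertain. Each group held 3 samples numbered 1 to 3, and no group carried a transgene or a deletion.

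STAT proteins are latent transcription factors of the cytoplasm. A cytokine binds its receptor, receptor-bound Janus kinases phosphorylate tyrosines on the receptor and then on the STAT, and the STAT forms a dimer that enters the nucleus and binds DNA. STAT2 acts in the type I interferon response, where it joins IRF9 in the complex ISGF3, which binds the interferon-stimulated response element (ISRE). STAT3 carries signals of the IL-6 and IL-10 families and is required for the anti-inflammatory action of IL-10 in macrophages. STAT4 carries the IL-12 signal, chiefly in T and NK cells. STAT5A and STAT5B are close relatives that act downstream of GM-CSF, IL-3, IL-2, IL-7, IL-15 and growth hormone, and STAT3 and STAT5 dimers bind gamma-activated sites (GAS). SOCS proteins and CIS are inhibitors that STATs themselves can induce. The measurements here are of mRNA, and neither STAT protein nor its phosphorylation was measured in them.

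In the mm10 coordinates of the tables all 5 were protein-coding genes. Stat2 lay at chr10:128270576-128292849 on the plus strand and Stat4 at chr1:52008244-52107184 on the plus strand. The other 3 lay side by side on chromosome 11 within 158781 bases, with Stat5b at chr11:100780731-100850585 (minus strand), Stat5a at chr11:100859351-100885169 (plus strand) and Stat3 at chr11:100886810-100939511 (minus strand). Stat5b and Stat5a point away from each other across 8765 bases, whereas Stat5a and Stat3 point toward each other, 1640 bases apart in the tables and overlapping by 72 bases at their ends in GENCODE vM21. The library kit did not mark strand, so reads from that overlap cannot be assigned to Stat5a or Stat3. Of the 50-base words in the longest transcript, 15.8% of those of Stat5a also occur in Stat5b and 11.8% of those of Stat5b occur in Stat5a. The division of reads between this pair is therefore uncertain. Its extent was not measured, since the sequenced read pairs are longer than these words. Stat4 shared 28.6% of its words with the predicted gene Gm28177, and Stat2 and Stat3 shared none with any other gene.

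Promoter windows of 300 bases (250 before to 50 after a transcript start) were searched on both strands for the GAS letters TTCNNNGAA, for an ISRE core of GAAA, any 2 bases and GAAA again, and for the kappaB consensus, the site of NF-kB. Among 32851 RefSeq windows of 27025 genes, 8.30% held the GAS letters, 3.44% the ISRE core and 5.81% the kappaB consensus. The 5 STAT genes had 8 windows, of which none held a GAS or kappaB match and 2 held the ISRE core. Those 2 windows belong to Stat2 and Stat4 and are shown because they alone among the 8 held a match. The sequences are RefSeq's on GRCm38.p6, both windows are on the plus strand, and the capitals mark the ISRE core, which overlaps no other motif searched. In Stat2 (chr10:128270248-128270547) the match starts at position -222 from the transcript start and reads in the reverse direction. In Stat4 (chr1:52007990-52008289, the downstream of its 2 windows) it starts at position -97.
Stat2 promoter: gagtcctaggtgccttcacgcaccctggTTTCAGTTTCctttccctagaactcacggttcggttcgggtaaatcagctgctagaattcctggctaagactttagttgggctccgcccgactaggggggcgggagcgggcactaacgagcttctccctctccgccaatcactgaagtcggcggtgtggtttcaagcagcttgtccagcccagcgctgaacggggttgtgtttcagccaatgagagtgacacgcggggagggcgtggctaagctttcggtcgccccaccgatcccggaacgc
Stat4 promoter: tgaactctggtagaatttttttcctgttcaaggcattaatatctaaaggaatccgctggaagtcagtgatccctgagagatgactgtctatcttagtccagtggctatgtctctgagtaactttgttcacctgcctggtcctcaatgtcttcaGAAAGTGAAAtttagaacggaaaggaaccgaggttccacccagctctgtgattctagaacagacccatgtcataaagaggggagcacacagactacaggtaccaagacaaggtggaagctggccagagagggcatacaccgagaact
A match of letters is a description of the window and not evidence of binding.

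Some features of the whole series bear on every value. Fragment counts were not among the values, so absolute depth is unknown, and relative depth read from the steps of low values ran from 0.991 to 3.30 times that of control replicate 1. Replicate 1 stood apart in every group. Across expressed genes the mean Pearson r within a group was 0.977 for replicates 2 and 3 and 0.959 for pairs that include replicate 1, and no 2 samples held identical values. Of 6 macrophage markers 5 were found (Adgre1 was not). They summed to between 5975 and 19528 FPKM, most of it Lyz2, whose mean was 16116 in control and 4298 in IL-4+LPS. Csf1r ranged from 411 to 932 FPKM and Cd68 from 998 to 1881. All 7 T or NK cell markers were below 1 FPKM in every sample. Among B cell, dendritic cell and mast cell or basophil markers, Cd79b (up to 4.28 FPKM), Zbtb46 (2.83) and Mcpt8 (1.76) passed 1 FPKM. Neutrophil markers, 5 of 6 found, were present in all groups and summed to 314-839 FPKM in untreated cells, 213-397 after IL-4, 501-1016 after LPS and 420-836 after the 2 in sequence, led by S100a8 and S100a9. From control to LPS the means of S100a8 (258 to 340 FPKM), S100a9 (299 to 409) and Camp (15.4 to 28.0) went up. Those of Elane (5.53 to 3.63 FPKM) and Mpo (5.46 to 3.26) went down. The part of neutrophil markers in the values below was not tested, and in bulk samples a change in the number of cells of a type cannot be told apart from a change in RNA per cell.

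Stat3 had the highest level of the 5 in unstimulated cells and Stat4 the lowest. In control samples Stat3 stood at 27.1 ± 1.81 FPKM (SD, n = 3, as for all group values), Stat5b at 17.9 ± 0.355, Stat2 at 12.7 ± 2.65, Stat5a at 9.84 ± 1.39 and Stat4 at 0.236 ± 0.195. In this order only the ranges of Stat2 and Stat5a overlapped. In LPS samples the order changed to Stat2 (83.6 ± 7.29), Stat3 (77.3 ± 14.1), Stat5a (76.0 ± 29.6), Stat5b (24.2 ± 5.39) and Stat4 (0.443 ± 0.236), and the ranges of the first 3 overlapped with their neighbours in the order. In IL-4+LPS samples Stat5a (111 ± 38.4) and Stat2 (102 ± 3.84) overlapped each other and lay above Stat3 (42.6 ± 11.4) and Stat5b (28.4 ± 6.02), whose ranges also overlapped.

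**Figure D1:**
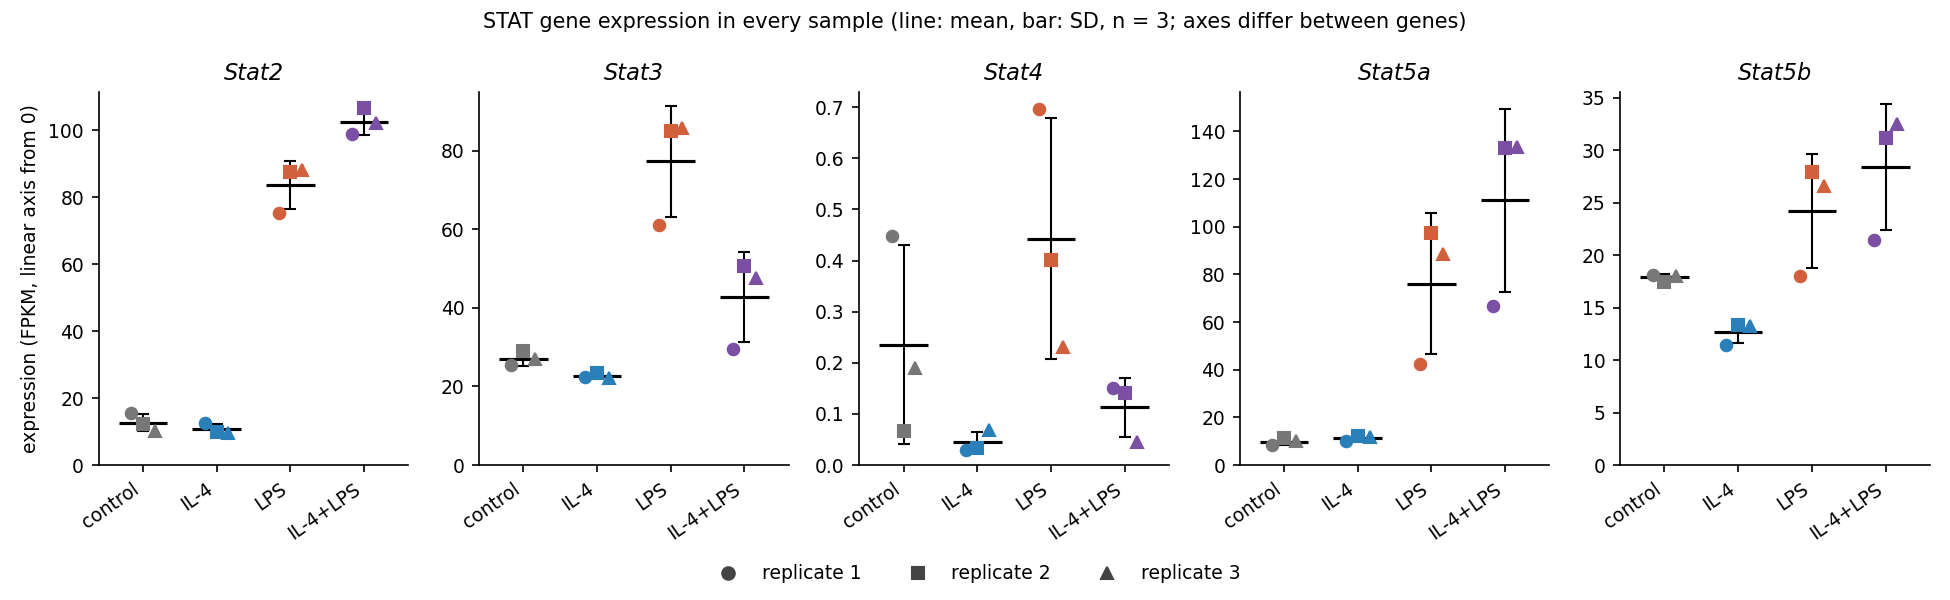
Expression of the 5 STAT genes in FPKM on linear axes from 0, with 1 point per sample (shape: replicate number), the group mean as a line and the SD as a bar (n = 3). Stat2 and Stat5a stand low in control and IL-4 and high in LPS and IL-4+LPS, Stat3 is highest in LPS, Stat5b spans 11.5 to 32.5 FPKM, and Stat4 never reaches 1 FPKM.

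The comparison of LPS with control asked how an inflammatory stimulus alone changes these genes. Stat2, Stat3 and Stat5a rose, none fell, and Stat5b did not pass the test. Of all 11191 expressed rows 16.9% were called higher and 57.7% lower, so a rise was the less common direction. The median log2 difference over all rows was -0.44, against 2.06 over the 4 STAT genes tested. That offset depends on scaling: it was -0.14 after median scaling and -0.12 after quantile normalization, and the share of calls that were higher was 22.6%, 40.0% and 40.2% under the 3 scalings. All tests are limma on log2(FPKM + 1) with Benjamini-Hochberg adjustment, which understates changes of low genes.

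Stat2, the interferon-specific STAT, read 15.5, 12.2 and 10.3 FPKM in control replicates 1 to 3 and 75.2, 87.6 and 88.1 in the LPS replicates. All LPS samples lay above all control samples. The ratio of the means was 6.60, and the log2 difference was 2.64 (SE 0.138, adjusted p = 6.85e-08). Stat5a, a STAT of the GM-CSF and IL-3 pathways, read 8.40, 11.2 and 9.95 FPKM in control and 42.2, 97.4 and 88.4 under LPS. The groups did not overlap, although LPS replicate 1 was far below the other LPS samples. The ratio of its means was 7.72 and the log2 difference 2.75 (SE 0.323, adjusted p = 2.11e-05), with a range of 2.53 to 3.12 when each of the 12 samples was left out in turn.

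Stat3, which carries IL-6 and IL-10 signals, read 25.3, 28.9 and 26.9 FPKM in control and 61.1, 85.1 and 85.9 under LPS. All LPS samples lay above all control samples here too, with a ratio of means of 2.86. Its log2 difference was 1.47 (SE 0.188, adjusted p = 3.98e-05). Stat5b, the close relative of Stat5a, read 18.1, 17.5 and 18.0 FPKM in control and 18.0, 27.9 and 26.6 under LPS. LPS replicate 1 stood inside the control range and the other LPS samples above it. The log2 difference of Stat5b was 0.39 (SE 0.176, 95% interval 0.0013 to 0.78, adjusted p = 0.0649). It passed the test without LPS replicate 1 (0.58, adjusted p = 0.00634), without IL-4+LPS replicate 1 (0.39, adjusted p = 0.0279), after median scaling (0.74, adjusted p = 0.00516), after quantile normalization (0.56, adjusted p = 0.0122) and with the replicate number as a block (0.39, adjusted p = 0.0157), which called 19.4% of all rows higher. With replicates 2 and 3 only, all 4 tested STAT genes were called higher, against 19.5% of the 11191 rows.

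Stat4 was barely present and was not tested, since no sample reached 1 FPKM. It read 0.449, 0.0672 and 0.191 FPKM in control and 0.0301, 0.0337 and 0.0688 after IL-4. Under LPS it read 0.696, 0.402 and 0.230 FPKM without earlier IL-4 and 0.151, 0.142 and 0.0455 with it. The LPS samples all lay above the IL-4+LPS samples, and the control range overlapped those of all other groups. With no filter on low values the log2 difference was 0.22 for LPS minus control (adjusted p = 0.271), -0.23 for IL-4 minus control (adjusted p = 0.359) and -0.36 for IL-4+LPS minus LPS (adjusted p = 0.130). The 7 T or NK cell markers summed to 0.0721-0.169 FPKM in control samples, 0.0362-0.0935 after IL-4, 0.172-0.447 after LPS and 0.0509-0.200 after IL-4 and LPS, and their part in the Stat4 values was not tested.

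The comparison of IL-4 with control gave small differences for all STAT genes. No member was called in either direction by limma, where 16.0% of all rows were called higher and 21.0% lower, and 1 of the 4 (Stat5b) had an unadjusted p under 0.05. Stat5b read 11.5, 13.3 and 13.2 FPKM after IL-4, each below the lowest control sample of 17.5. Its log2 difference was -0.47 (SE 0.176, adjusted p = 0.0601). That difference passed the test in the fit of the compared groups alone (adjusted p = 0.00515), after quantile normalization (-0.51, adjusted p = 0.0336), without LPS replicate 1 (adjusted p = 0.0228) and without IL-4+LPS replicate 1 (adjusted p = 0.0248). It also passed with the replicate number as a block (adjusted p = 0.0128), where 28.4% of all rows were called lower.

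The other members moved less after IL-4. Stat3 read 22.4, 23.3 and 22.2 FPKM, below the control samples, with a log2 difference of -0.25 (adjusted p = 0.338; 0.0285 in the fit of the compared groups alone). The range of Stat2 (12.5, 9.92 and 9.59 FPKM) overlapped that of control, with a log2 difference of -0.22 (95% interval -0.52 to 0.09, adjusted p = 0.246). Stat5a read 10.2, 12.2 and 11.7 FPKM, which also overlapped control, with a log2 difference of 0.19 (95% interval -0.52 to 0.91, adjusted p = 0.682). With replicates 2 and 3 only, Stat5b (-0.39, adjusted p = 7.34e-04) and Stat3 (-0.29, adjusted p = 0.00534) were called lower, as were 29.4% of all rows.

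In cells that had first seen IL-4, LPS raised all 4 tested STAT genes. The background in IL-4+LPS minus IL-4 was 15.0% of rows called higher and 57.9% lower, and the median was -0.41 over all rows and 2.10 over the 4 genes. Stat2 reached 98.8, 106 and 102 FPKM, 9.60 times the IL-4 mean, with a log2 difference of 3.16 (SE 0.138, adjusted p = 2.29e-08). Stat5a reached 66.7, 133 and 133 FPKM, 9.77 times the IL-4 mean, with a log2 difference of 3.11 (SE 0.323, adjusted p = 1.00e-05). For both, every sample with LPS lay above every sample without it, and replicate 1 was again the lowest with LPS.

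Stat5b passed the test in this comparison. It read 21.5, 31.2 and 32.5 FPKM against 11.5 to 13.3 after IL-4 alone, a ratio of means of 2.24 and a log2 difference of 1.08 (SE 0.176, adjusted p = 2.54e-04). Stat3 rose the least of the 4, to 29.5, 50.7 and 47.7 FPKM, a ratio of means of 1.88 and a log2 difference of 0.85 (SE 0.188, adjusted p = 0.00204). None of these 4 calls was lost when any 1 of the 12 samples was left out.

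Among LPS-exposed samples, Stat3 was lower after earlier IL-4, and the other 3 tested members did not pass the test. IL-4+LPS was compared with LPS directly, a contrast in which 15.0% of all rows were called higher and 15.8% lower. The LPS samples of Stat3 (61.1, 85.1 and 85.9 FPKM) all lay above the IL-4+LPS samples (29.5, 50.7 and 47.7 FPKM). The mean with IL-4 was 0.551 times that without it, and the log2 difference was -0.86 (SE 0.188, adjusted p = 0.00565). The call held in all 12 fits that left out 1 sample (-1.02 to -0.63) and was lost in the fit of the compared groups alone (adjusted p = 0.0528). Within replicate numbers 1, 2 and 3 the ratio was 0.484, 0.596 and 0.555.

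The means of those 3 lay above their LPS means. Stat2 was 1.23 times as high, all 3 IL-4+LPS samples lay above all LPS samples, and the log2 difference of 0.29 missed the threshold (adjusted p = 0.138; 0.0498 in the fit of the compared groups alone). Stat5a was 1.46 times as high with overlapping ranges (log2 difference 0.56, 95% interval -0.16 to 1.28, adjusted p = 0.225). Its difference passed the test without IL-4+LPS replicate 1 (0.89, adjusted p = 0.0427) and with the replicate number as a block (adjusted p = 0.0414), which called 20.4% of all rows higher and 23.8% lower. Stat5b was 1.17 times as high, also with overlap (0.22, 95% interval -0.17 to 0.61, adjusted p = 0.381). With replicates 2 and 3 only, Stat2, Stat5a and Stat5b were called higher and Stat3 lower, where 21.0% of all rows were called higher and 25.9% lower.

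The interaction asks whether the LPS response differs after IL-4, as the log2 response after IL-4 minus that without it. No member passed limma's adjusted threshold, where 4.58% of all rows were called higher and 4.63% lower, and 3 of 4 (all but Stat5a) had an unadjusted p under 0.05. The estimates were 0.69 for Stat5b (SE 0.249, adjusted p = 0.117), 0.51 for Stat2 (SE 0.195, adjusted p = 0.136), 0.37 for Stat5a (SE 0.457, adjusted p = 0.689) and -0.62 for Stat3 (SE 0.266, adjusted p = 0.186). With the replicate number as a block, which called 10.2% of all rows higher, Stat5b passed the test (0.69, adjusted p = 0.0261) and Stat3 stood at an adjusted p of 0.0508. Without IL-4+LPS replicate 1 the estimate for Stat5b was 0.87 (adjusted p = 0.0288). With replicates 2 and 3 only, Stat2 (0.43, adjusted p = 0.0295), Stat5a (0.35, adjusted p = 0.0431) and Stat5b (0.61, adjusted p = 0.00155) were called higher and Stat3 lower (-0.50, adjusted p = 0.00546), where 13.2% of all rows were called higher and 12.4% lower.

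**Figure D2:**
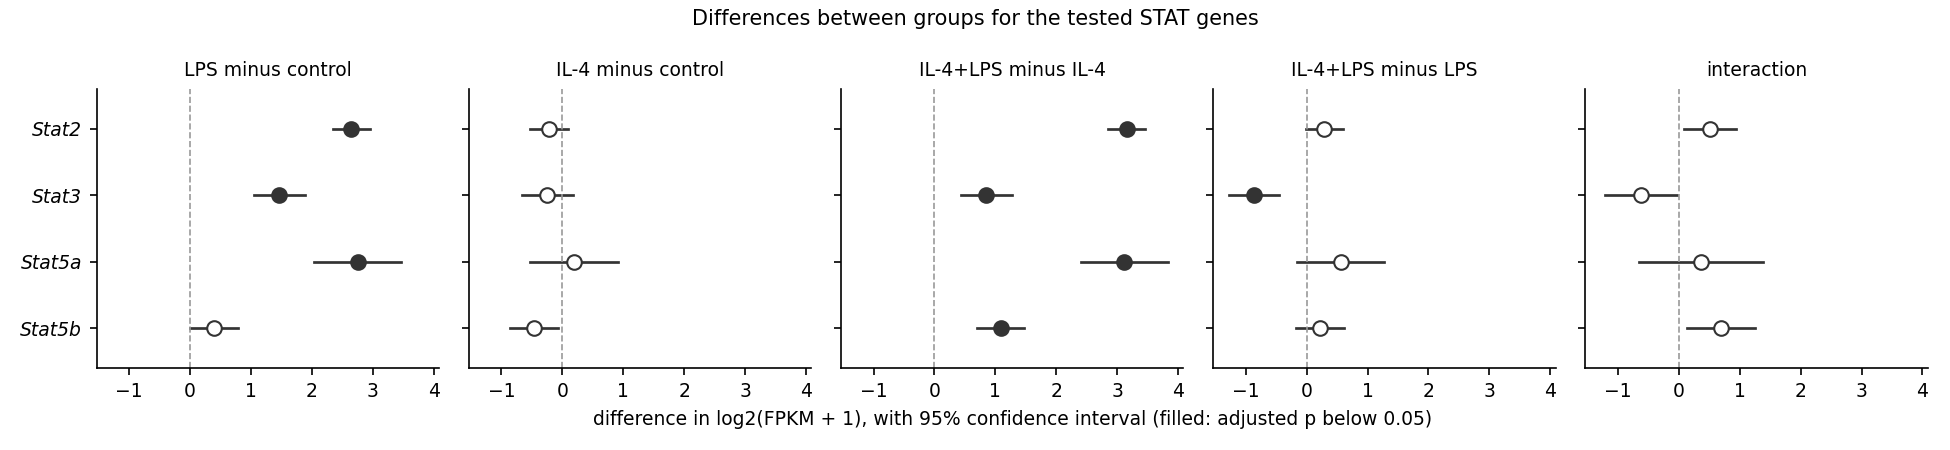
Differences in log2(FPKM + 1) for the 4 tested STAT genes in the 5 comparisons, with 95% confidence intervals; filled points passed an adjusted p of 0.05. Filled points stand to the right in both comparisons with LPS, except for Stat5b in LPS minus control, and only Stat3 stands filled to the left, in IL-4+LPS minus LPS (-0.86).

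The makeup of the STAT transcripts changed with LPS, described here without a test. The 5 genes summed to 67.7 ± 2.21 FPKM in control and 57.4 ± 1.24 after IL-4, and with LPS to 262 ± 56.0 without earlier IL-4 and 285 ± 58.9 with it. Stat3 made up 40.0% of that sum in control, 39.4% after IL-4, 29.7% after LPS and 14.8% after IL-4 followed by LPS. The share of Stat5a was 14.5%, 19.8%, 28.2% and 38.1% in the same order, and that of Stat5b 26.4%, 22.1%, 9.23% and 9.96%. Stat3 thus held the largest share without LPS, and Stat2 with 32.6% and 37.0% or Stat5a held it with LPS.

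Stat5a and Stat5b exchanged rank. The ratio of Stat5a to Stat5b was 0.464, 0.639 and 0.552 in control samples, 0.889, 0.919 and 0.882 after IL-4, 2.34, 3.49 and 3.32 after LPS and 3.11, 4.27 and 4.10 after IL-4 and LPS. Stat5b was the more abundant of the pair in every sample without LPS and Stat5a in every sample with it. The control and IL-4 ratios did not overlap, and the LPS and IL-4+LPS ratios did. The shared sequence given above limits how sharply the pair can be separated.

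**Figure D3:**
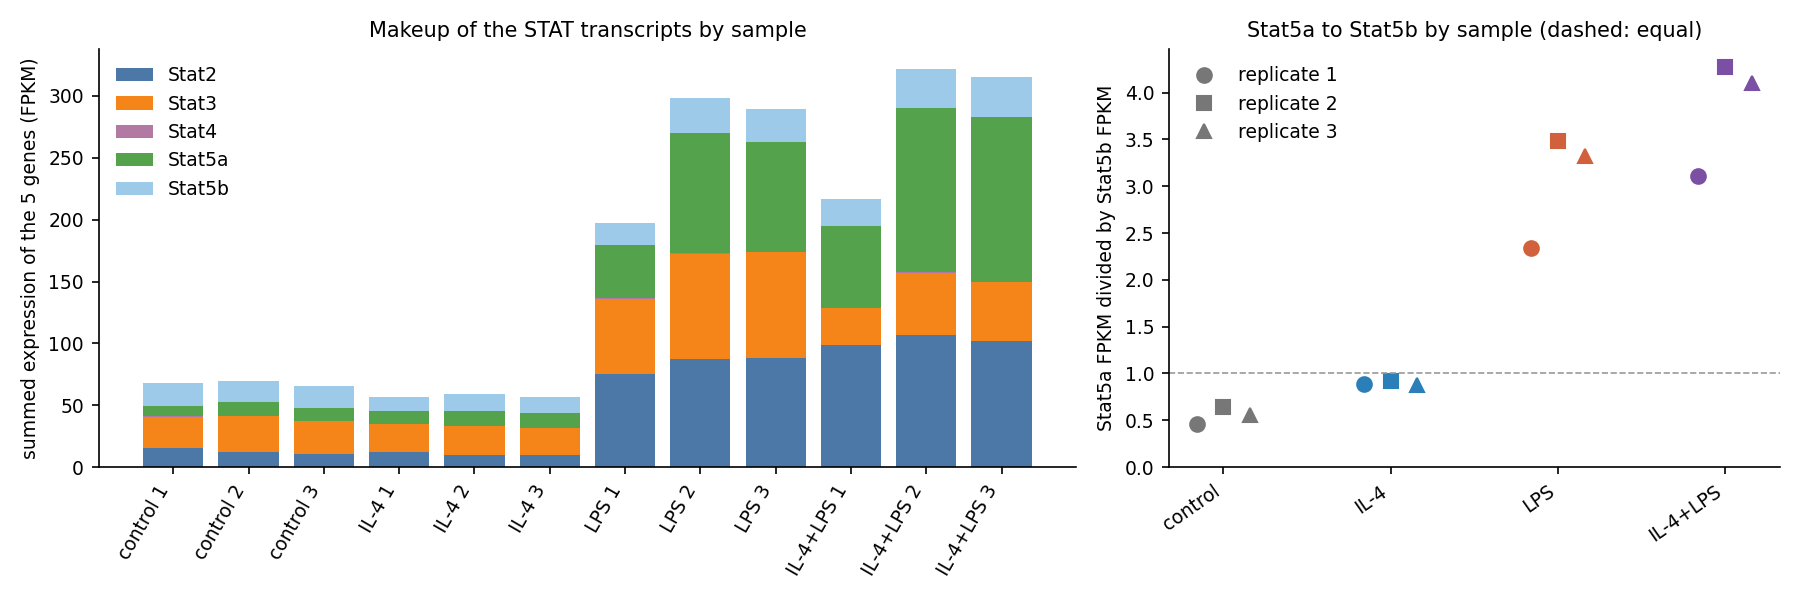
Left, stacked FPKM of the 5 STAT genes in each sample; right, Stat5a FPKM divided by Stat5b FPKM in each sample, with the dashed line at equal levels. The sums lie between 56.6 and 69.8 FPKM without LPS and between 197 and 322 with it, and the ratio crosses 1 only in samples with LPS.

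The 3 neighbours on chromosome 11 are given side by side, and the differences between them were not tested. From LPS to IL-4+LPS Stat3 fell by 0.86 on the log2 scale while Stat5a, its convergent neighbour, differed by 0.56 (adjusted p = 0.225) and Stat5b by 0.22 (adjusted p = 0.381). Other expressed genes within 100000 bases were called in both directions in LPS minus control. Dhx58, an RNA sensor of the RIG-I family, rose (1.61, adjusted p = 2.07e-06), Atp6v0a1, a subunit of the vacuolar proton pump, fell (-2.06, adjusted p = 6.84e-07), Kat2a, a histone acetyltransferase, fell (-1.0, adjusted p = 4.30e-05) and Ghdc fell (-0.56, adjusted p = 0.00230). Rab5c, an endosomal GTPase, was at -0.07 (adjusted p = 0.585) and Ptrf at 0.40 (adjusted p = 0.321). Atp6v0a1, on the far side of Stat3, stood above its LPS level in IL-4+LPS (2.05, adjusted p = 4.07e-06), the direction opposite to that of Stat3.

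**Figure D4:**
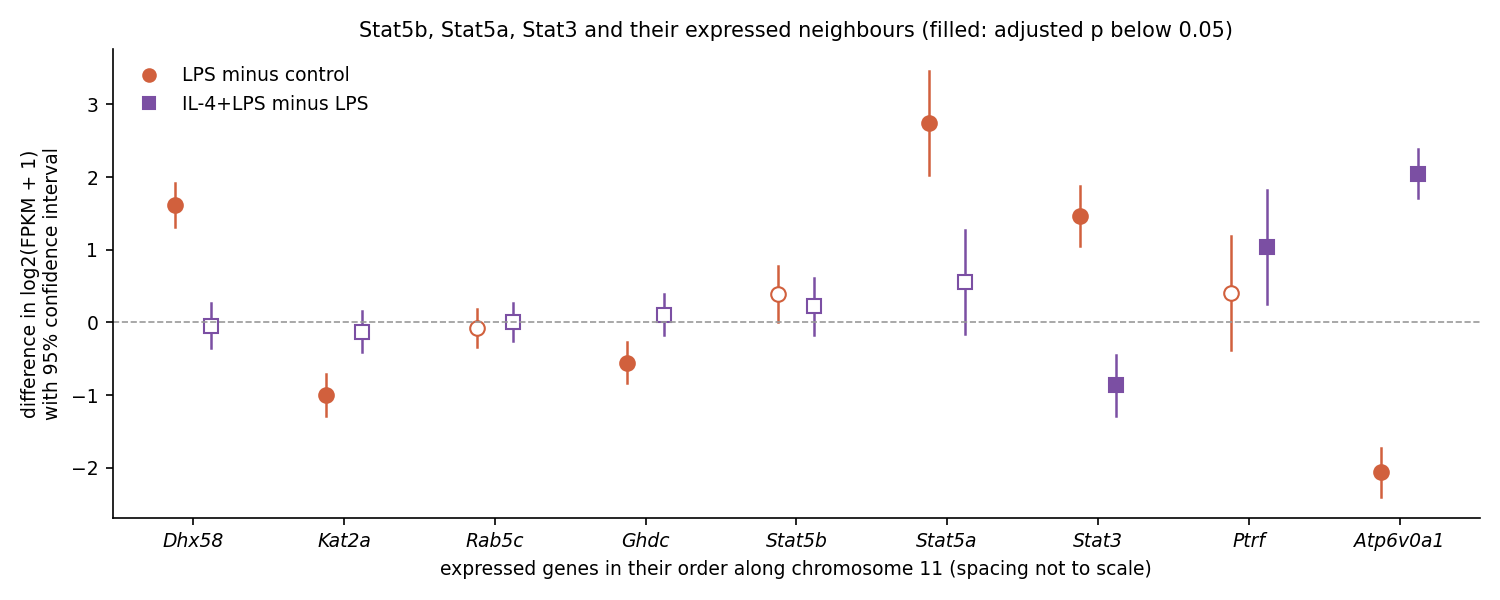
Differences in log2(FPKM + 1) with 95% confidence intervals for Stat5b, Stat5a, Stat3 and the expressed genes within 100000 bases of them, in chromosomal order with spacing not to scale; filled points passed an adjusted p of 0.05. Stat5a (2.75) and Stat3 (1.47) stand above 0 in LPS minus control, and in IL-4+LPS minus LPS Stat3 (-0.86) stands below 0 between Stat5a (0.56) and Ptrf (1.03).

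Genes whose pattern was most like that of each member were ranked by Pearson r of log2(FPKM + 1) over the 12 samples, among 7185 genes with a mean of at least 5 FPKM. The 12 samples share 4 treatments, and the r is given as a description. For Stat2 the nearest were Procr, the endothelial protein C receptor (r = 0.998), Irgm1, an immunity-related GTPase (0.997), and Ifih1, the RNA sensor MDA5 (0.997). For Stat3 they were Sbno2, a known target of IL-10 and STAT3 signaling (0.994), Ptges, a prostaglandin E synthase (0.990), and Lphn2, a latrophilin receptor (0.990). These 3 were picked for likeness to Stat3, so a higher level in LPS than in IL-4+LPS follows from the choice. Their means in LPS and IL-4+LPS were 100 and 47.5 FPKM for Sbno2, 83.9 and 8.88 for Ptges and 40.5 and 18.1 for Lphn2. For Stat5a they were Met, the HGF receptor (0.998), Pvr, an adhesion receptor of the nectin family (0.998), and Oaf (0.997). Their means were highest in IL-4+LPS, but none was called in IL-4+LPS minus LPS (adjusted p = 0.380, 0.226 and 0.199). For Stat5b they were Zfand2b (0.982), Mamld1 (0.973) and Cln3, a lysosomal membrane protein (0.965). The genes named for Stat2 and for Stat5b also had their highest means in IL-4+LPS. Stat4, at values under 1 FPKM, had lower maxima with Plekhn1 (0.896), the chemokine receptor Ccr3 (0.887) and the splicing factor Srsf5 (0.885).

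Genes around the STATs were taken from 8 lists of 98 genes in all, ordered here from ligands to targets. The lists were chosen with earlier results of these data known, so their counts are descriptions. Of 16 cytokines that signal through these STATs, 13 were expressed, and 9 rose and 2 fell with LPS (median log2 difference 1.96, against -0.44 over all rows), where 16.9% of all rows rose and 57.7% fell. Il27, a cytokine of the IL-12 family that signals through gp130, rose from 1.36 ± 1.01 to 441 ± 182 FPKM (log2 difference 7.53, adjusted p = 2.69e-07). Il15, which uses STAT5, rose from 24.0 ± 2.85 to 248 ± 42.4 FPKM (3.31, adjusted p = 2.37e-07) and was lower after IL-4 alone (8.59 ± 2.85 FPKM, -1.42, adjusted p = 4.65e-04). Il12a, the p35 subunit of the STAT4-activating IL-12, was listed at 0 in all control samples, stood at 4.22 ± 1.84 FPKM in LPS and at 41.4 ± 14.8 in IL-4+LPS, and differed between the last 2 by 3.02 (adjusted p = 3.70e-05). Osm, an IL-6 family cytokine and STAT5 target, fell with LPS from 4.84 ± 0.455 to 1.63 ± 0.185 FPKM (-1.15, adjusted p = 4.94e-04) and with IL-4 to 1.76 ± 0.395 (-1.09, adjusted p = 0.00237).

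Of 26 receptor chains listed, 18 were expressed, and 7 rose and 10 fell with LPS (median -0.28, against -0.44 over all rows). The falls made up a share of the 18 close to the 57.7% of all rows called lower. Il6st, which encodes the shared chain gp130 used by STAT3 ligands, stood at 52.2 ± 0.692 FPKM in control, 149 ± 11.9 after IL-4, 13.4 ± 0.589 after LPS and 45.0 ± 9.68 after IL-4 followed by LPS. It therefore rose with IL-4 (1.49, adjusted p = 8.06e-06), fell with LPS (-1.88, adjusted p = 2.94e-07) and stood above its LPS level in IL-4+LPS (1.65, adjusted p = 4.21e-06), where Stat3 was lower. Il6ra, the chain specific to IL-6, fell with LPS from 24.9 ± 2.45 to 2.69 ± 0.623 FPKM (-2.82, adjusted p = 1.47e-07) and was lower again in IL-4+LPS (0.798 ± 0.387 FPKM, -1.05 against LPS, adjusted p = 8.20e-04). Il10ra, the chain specific to IL-10, stood at 66.2 ± 2.48 FPKM in control, 27.3 ± 1.03 after IL-4, 83.9 ± 9.30 after LPS and 89.7 ± 4.90 after IL-4 followed by LPS.

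Receptor chains for the ligands of STAT2 and STAT5 were called in both directions. Ifnar1 and Ifnar2, the chains of the type I interferon receptor, rose with LPS from 28.5 ± 1.01 to 51.3 ± 6.94 FPKM (0.82, adjusted p = 2.14e-05) and from 110 ± 9.81 to 153 ± 8.52 FPKM (0.47, adjusted p = 5.85e-04). Ifnar2 was lower after IL-4 (79.3 ± 3.49 FPKM, -0.46, adjusted p = 0.00224) and, among the samples with LPS, lower where IL-4 came first (mean 117 FPKM, -0.38, adjusted p = 0.00786). Among chains for the ligands of STAT5, Csf2rb, Il2rg and Il15ra rose with LPS, whereas Csf2ra, Il3ra, Il7r and Epor fell and Csf2rb2 did not pass the test. After IL-4, Csf2ra, Csf2rb and Csf2rb2 rose and Il2rg and Epor fell, and the chains outside the rule for named genes are listed here after their values were seen. Il7r, the IL-7 receptor chain, had the largest of these 4 falls with LPS, from 106 ± 23.0 to 27.0 ± 5.30 FPKM (-1.93, adjusted p = 1.83e-04). Il15ra rose with LPS from 1.54 ± 0.176 to 26.0 ± 7.30 FPKM (3.37, adjusted p = 1.50e-07). Csf2rb, the signaling chain for GM-CSF and IL-3, rose with IL-4 from 74.4 ± 0.958 to 193 ± 12.6 FPKM (1.36, adjusted p = 4.37e-07). Its rise with LPS was small (0.18, adjusted p = 0.0389), and 6 of the 12 fits that left out 1 sample lost that call. After quantile normalization the LPS difference of Csf2rb was 0.07 (adjusted p = 0.503). The IL-12 receptor chains upstream of STAT4 were low, with Il12rb1 between 0.0359 and 0.439 FPKM over the 12 samples and Il12rb2 at 3.30 ± 0.386 FPKM in control and 2.24 ± 0.389 in LPS. That fall of Il12rb2 (-0.41, adjusted p = 0.0103) became a difference of 0.18 after quantile normalization (adjusted p = 0.246). With IL-4 alone Il12rb2 was also lower than in control (-0.64, adjusted p = 0.00224), a call held in all 12 fits that left out 1 sample.

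Of the 4 Janus kinases 3 rose with LPS and none fell, where 16.9% of all rows rose and 57.7% fell. Jak2, used by the GM-CSF and IL-12 receptors, rose from 8.95 ± 0.584 to 164 ± 25.1 FPKM (4.05, adjusted p = 4.16e-09), stood at 22.0 ± 2.07 after IL-4 (1.21, adjusted p = 7.72e-05) and reached 166 ± 25.2 in IL-4+LPS. Jak3, the kinase of the common gamma chain, was the 1 not called with LPS (0.14, adjusted p = 0.462). It was called higher after median scaling (0.47, adjusted p = 0.0313) and quantile normalization (0.56, adjusted p = 0.0194). With IL-4 Jak3 was lower both without LPS (-0.67, adjusted p = 0.00950) and with it (-0.92, adjusted p = 0.00187). Irf9, the DNA-binding partner of STAT2 in ISGF3, stood at 25.0 ± 2.75 FPKM in control, 12.0 ± 2.41 after IL-4, 41.7 ± 2.61 after LPS and 34.6 ± 2.38 after IL-4 followed by LPS. It fell with IL-4 (-1.01, adjusted p = 1.73e-04) and rose with LPS (0.72, adjusted p = 4.02e-04), whereas the IL-4 difference of Stat2 was -0.22 (adjusted p = 0.246).

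Of 19 inhibitors of JAK-STAT signaling 8 rose and 5 fell with LPS (median 0.10), against 16.9% and 57.7% of all rows. Socs3, which restrains gp130 signaling, rose from 0.869 ± 0.537 to 523 ± 229 FPKM (8.05, adjusted p = 1.90e-07) and stood at 358 ± 195 in IL-4+LPS (-0.63 against LPS, adjusted p = 0.372). Socs1 rose with IL-4 from 0.829 ± 0.373 to 31.5 ± 1.56 FPKM (4.17, adjusted p = 2.55e-06) and with LPS to 58.5 ± 19.8 (4.98, adjusted p = 1.36e-07). Cish, the classical STAT5 target that encodes CIS, rose with IL-4 from 0.709 ± 0.130 to 20.7 ± 5.17 FPKM (3.64, adjusted p = 2.04e-04) and with LPS to 15.0 ± 8.00 (3.06, adjusted p = 1.51e-04). In IL-4+LPS Cish reached 146 ± 69.0 FPKM, above LPS by 3.23 (adjusted p = 4.88e-04), and Socs2 rose with IL-4 from 0.0817 ± 0.0460 to 2.76 ± 0.112 FPKM (1.80, adjusted p = 2.76e-07). Sh2b3, the adaptor LNK, fell with LPS from 32.2 ± 0.856 to 10.1 ± 1.15 FPKM (-1.58, adjusted p = 4.11e-07). Pias3, an inhibitor of STAT3, fell with IL-4 (-0.92, adjusted p = 3.73e-04), and its fall with LPS (-0.56, adjusted p = 0.00250) was not called after median scaling (-0.24, adjusted p = 0.151) or quantile normalization (-0.14, adjusted p = 0.438).

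All 15 ISGF3 targets tested rose with LPS (median 5.56), where 16.9% of all rows rose. With IL-4, 14 of the 15 fell (median -1.45, against -0.05 over all rows), where 21.0% of all rows fell. Rsad2, the antiviral protein viperin, rose with LPS from 6.00 ± 3.06 to 914 ± 69.9 FPKM (7.12, adjusted p = 2.09e-08). Oas2, an oligoadenylate synthetase, stood at 12.4 ± 4.18 FPKM in control, 1.12 ± 0.761 after IL-4, 43.2 ± 3.62 after LPS and 20.8 ± 3.84 after IL-4 followed by LPS, and Rtp4 at 27.6 ± 11.1, 4.82 ± 3.88, 189 ± 6.16 and 139 ± 10.4 FPKM in the same order. Both fell with IL-4, Oas2 with a log2 difference of -2.67 (adjusted p = 2.99e-05) and Rtp4 with -2.42 (adjusted p = 7.65e-04). In IL-4+LPS minus LPS, where Stat2 had a log2 difference of 0.29, the ISGF3 targets had a median of -0.16, with 0 of 15 called higher and 2 (Mx2 and Oas2) called lower, near the 15.8% of all rows called lower. The call of Oas2 (-1.03, adjusted p = 0.0128) was lost without IL-4+LPS replicate 3 (-0.88, adjusted p = 0.0543).

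Of 12 STAT3 targets 7 rose and 3 fell with LPS (median 1.84), against 16.9% and 57.7% of all rows. In IL-4+LPS minus LPS, where Stat3 fell, 5 of the 12 were called lower and 0 higher (median -0.20), where 15.8% of all rows were called lower and 15.0% higher (median -0.03). Those 5 were Mcl1, a survival protein, Il4ra, the IL-4 receptor chain, Vegfa, a growth factor of vessels, Hif1a, the hypoxia factor, and Sbno2 (-1.08, adjusted p = 0.0112), named after their values were seen. The call of Vegfa (-1.25, adjusted p = 0.0273) was lost in 3 of 12 fits that left out 1 sample. It was also lost with no filter on low values (adjusted p = 0.0901). Fos, part of AP-1, fell with LPS from 91.7 ± 11.4 to 7.06 ± 2.97 FPKM (-3.58, adjusted p = 2.50e-05). Vegfa fell with LPS from 9.70 ± 5.64 to 2.13 ± 1.10 FPKM (-1.71, adjusted p = 0.00166) and with IL-4 to 2.58 ± 1.42 (-1.53, adjusted p = 0.00876). Nfil3, a bZIP repressor, rose with IL-4 from 6.73 ± 1.02 to 37.5 ± 1.33 FPKM (2.32, adjusted p = 6.97e-04) and stood at 11.8 ± 4.34 in LPS (0.67, adjusted p = 0.116).

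Of 10 STAT5 targets tested out of 11, 6 rose and 3 fell with LPS (median 1.49), against 16.9% and 57.7% of all rows, and 4 rose and 2 fell with IL-4 (median 0.19), against 16.0% and 21.0%. Cdkn1a, the cell cycle inhibitor p21, rose with LPS from 106 ± 19.7 to 1678 ± 220 FPKM (3.99, adjusted p = 3.09e-08) and stood at 121 ± 14.4 in IL-4 (0.20, adjusted p = 0.431). Myc, which promotes growth, rose with IL-4 from 8.80 ± 1.88 to 23.8 ± 3.20 FPKM (1.35, adjusted p = 1.49e-04) and fell with LPS to 2.49 ± 0.317 (-1.48, adjusted p = 1.55e-05). In IL-4+LPS minus LPS 4 of the 10 were called higher and 2 lower, against 15.0% and 15.8% of all rows. The higher call of Osm (0.62, adjusted p = 0.0461) was lost in 10 of 12 fits that left out 1 sample. Several of these genes also stand in another list or respond to other factors, so the counts describe the lists and not the activity of a STAT.

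**Figure D5:**
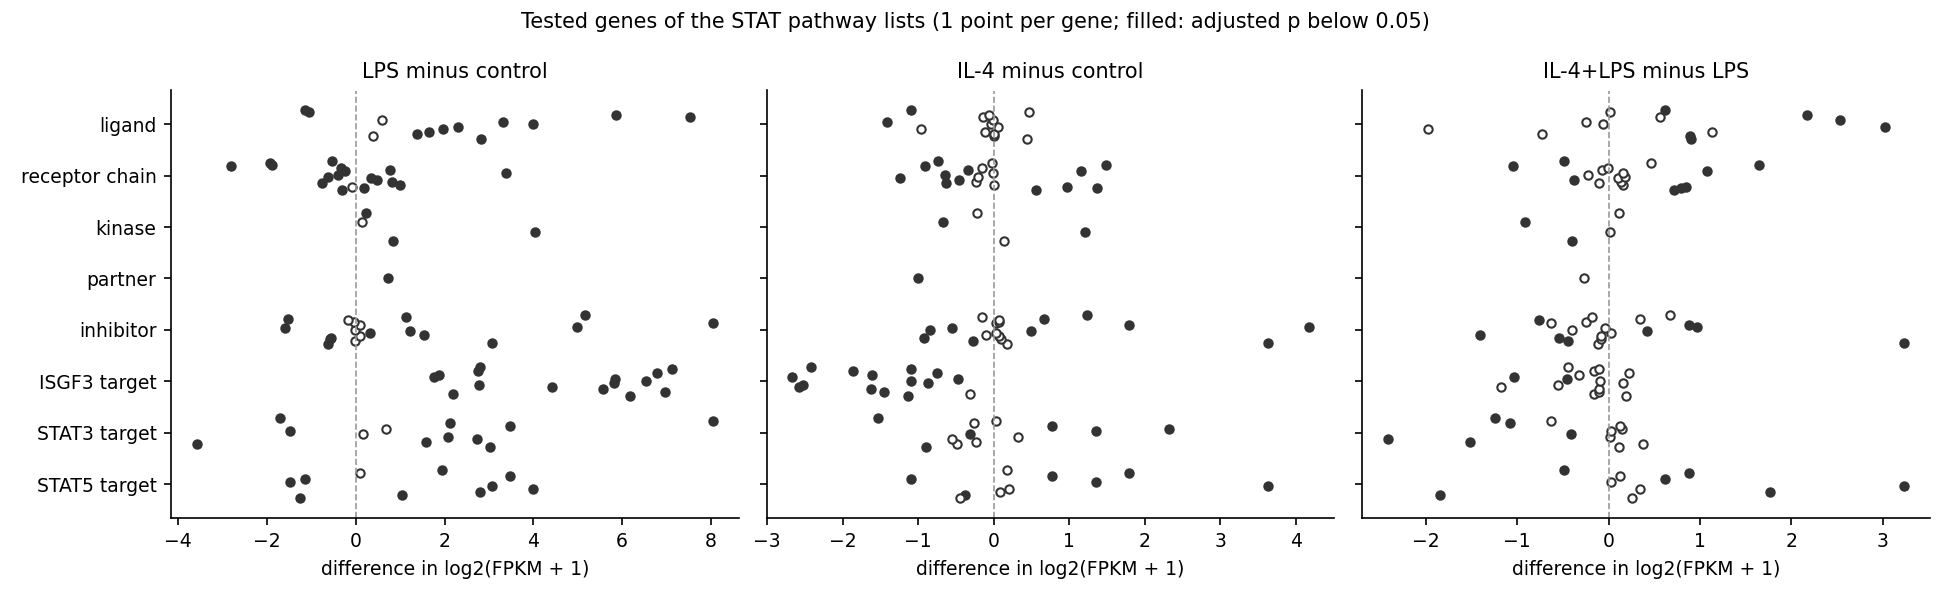
Differences in log2(FPKM + 1) for the tested genes of the 8 lists in 3 comparisons, with 1 point per gene, filled where the adjusted p was below 0.05; axes differ between panels. All 15 ISGF3 targets stand to the right of 0 in LPS minus control, 14 stand filled to the left in IL-4 minus control, and in IL-4+LPS minus LPS 5 STAT3 targets stand filled to the left of 0.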

How the data were processed

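Poly-A RNA of 12 BMDM samples (4 groups of 3) was sequenced as paired reads with an unstranded kit. Per the submitters' notes and the study's methods, the authors mapped reads to mm10 with TopHat2 2.0.7 and deposited FPKM values from Cufflinks 2.0.2, 1 table per sample with replicates kept apart. The gene annotation is not given in the sources used here. Replicates were individual animals over more than 1 experiment per the study, and which number belongs to which experiment is not given.

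Tables were joined on symbol, locus and start site (23847 rows, 23361 symbols), and starts were moved to 1-based positions. Rows with at least 1 FPKM in at least 1 sample (11191) were tested as log2(FPKM + 1) by a group-means model over all 12 samples in limma 3.58.1 under R 4.3.3 (eBayes with trend, two-sided), with Benjamini-Hochberg adjustment within each contrast and a threshold of 0.05. Levels and ratios of means are of untransformed FPKM. The script was tested on simulated data. Relative depth of 0.991 to 3.30 was fitted to the steps of low values, and the steps of 55 of the 55 sample pairs without control replicate 1 were within 2% of it. With no counts, no counting interval was formed. FPKM totals were 457583 to 495025 per sample.

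The 5 genes and the 98 genes of the lists were chosen with earlier results of these data known. Named genes are all 5 members, the 3 genes most like each, the list genes with the largest called differences in the LPS, IL-4 and interaction contrasts (up to 4 a list), and Irf9, Cish, Socs2, Socs3, Il6st, Ifnar1, Ifnar2, Il12rb1, Il12rb2 and Csf2rb. Alternatives were a pseudocount of 0.1, no filter, at least 1 FPKM in 3 samples, median scaling, quantile normalization, no trend, the compared groups alone, a per-gene Tukey test, the replicate number as a block, each sample left out in turn and, added after seeing the data, replicates 2 and 3 only. Promoters were taken from RefSeq (GRCm38.p6) and gene models from GENCODE vM21. Python 3.11.15 with matplotlib 3.10.9 was used for the plots.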

Additional observations from a re-analysis of the deposited data

Results flagged for a closer look

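No STAT gene had an LPS response that passed the adjusted threshold for a difference after IL-4, but 24 of the 86 tested genes of the pathway lists did by limma's test of the interaction, 11 higher and 13 lower, where 4.58% of all rows were called higher and 4.63% lower. The 13 of these 24 that the rule for named genes covers are given here, and the other 11 are Il6, Ifit1, Oasl1 and Oasl2 (higher) and Jak1, Socs5, Ptpn1, Il4ra, Hif1a, Bcl6 and Spred1 (lower). The lists were chosen with earlier results of these data known, so the count of 24 is a description and not a test of the lists. The value given for each gene is the log2 response to LPS after IL-4 minus that without IL-4, in 12 samples.

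The value was above 0 for Il12a (2.96, adjusted p = 0.00199), Rtp4 (1.97, adjusted p = 0.0485), Osm (1.71, adjusted p = 0.00501), Oas2 (1.63, adjusted p = 0.0209), Il10ra (1.35, adjusted p = 1.05e-04), Il15 (1.18, adjusted p = 0.0330) and Irf9 (0.74, adjusted p = 0.0282). For Osm the LPS difference was -1.15 without IL-4 and 0.56 after it. Il12a was listed at 0 in all control samples, so its value depends on the pseudocount. Osm, Oas2, Rtp4, Il10ra, Il15 and Irf9 were lower after IL-4 alone than in control.

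The value was below 0 for Socs1 (-3.21, adjusted p = 0.00102), Nfil3 (-2.18, adjusted p = 0.0255), Myc (-1.33, adjusted p = 0.00585), Jak2 (-1.20, adjusted p = 0.00341), Socs2 (-0.92, adjusted p = 0.00141) and Csf2rb (-0.58, adjusted p = 0.00566). These 6 were all higher after IL-4 alone than in control. Socs1 and Jak2 rose less with LPS after IL-4 (1.77 and 2.85) than without it (4.98 and 4.05). Myc fell further with LPS after IL-4 (-2.80) than without it (-1.48). The LPS differences without IL-4 and after it were 0.67 and -1.50 for Nfil3, 0.10 and -0.82 for Socs2 and 0.18 and -0.39 for Csf2rb. The calls of Il12a, Osm, Il10ra, Socs1, Myc, Jak2, Socs2 and Csf2rb held in all 12 fits that left out 1 sample, whereas 10 of 12 fits lost the call of Rtp4 (1.67 to 2.48), 9 that of Il15 (1.03 to 1.41), 7 that of Irf9 (0.64 to 0.89), 6 that of Nfil3 (-2.50 to -1.71) and 4 that of Oas2 (1.40 to 1.91). After quantile normalization Socs2 was at -0.46 (adjusted p = 0.119).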

How the results depend on the processing

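The calls of Stat2, Stat3 and Stat5a in LPS minus control and of all 4 tested genes in IL-4+LPS minus IL-4 kept direction and side of the threshold under every alternative run. In LPS minus control 3 members were called higher, and 4 after either scaling, with the replicate block and with replicates 2 and 3 only. In IL-4 minus control 0 members were called lower, against 1 after quantile normalization, 1 with the replicate block, 2 with the compared groups alone, 2 with replicates 2 and 3 only, and 0 to 1 when 1 sample was left out. In IL-4+LPS minus LPS 0 were called higher, against 1 with the compared groups alone, 1 with the replicate block, 3 with replicates 2 and 3 only and 0 to 1 with 1 sample left out, and 1 was called lower, against 0 with the compared groups alone. In the interaction 0 were called higher, against 1 with the replicate block, 3 with replicates 2 and 3 only and 0 to 1 with 1 sample left out, and 0 lower, against 1 with replicates 2 and 3 only. The cause was not tested. Of 240 member values with 1 sample left out, 234 kept their call, 6 gained one and 0 lost one. Il12rb2 reversed in LPS minus control after quantile normalization (0.18).

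The labels do not say what a replicate number marks. The deviations of same-numbered samples from their group means had r from 0.0024 to 0.386 (mean 0.124), with 11 of 18 pairs over 0.1, and 9 of 12 samples correlated best with their own number, a hint of pairing from the data and not from the design. On the first component within groups (28.2% of that variance) the replicate 1 samples lay at 15.6 to 33.1 and all others at -18.5 to -4.51. With the replicate block, Stat5b in LPS minus control (adjusted p = 0.0157), IL-4 minus control (0.0128) and the interaction (0.0261), and Stat5a in IL-4+LPS minus LPS (0.0414), became called. Over all rows, LPS minus control had 1887 higher calls, against 2966 with median scaling and 2903 with quantile normalization. IL-4+LPS minus IL-4 had 1682 higher and 6474 lower, against 2629 and 4057 with median scaling and 4173 lower with quantile normalization, and the higher share of its calls was 20.6%, 39.3% and 37.1%. IL-4+LPS minus LPS had 1771 lower, against 2667 with the block and 2901 with replicates 2 and 3 only. The interaction had 512 higher and 518 lower, against 1145 and 1095 with the block, 1481 and 1386 with replicates 2 and 3 only, 311 and 334 without LPS replicate 3, and 325 and 334 without IL-4 replicate 3. Depth limits Stat4 most, whose values under 1 FPKM rest on few fragments.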
